A study of Mus musculus with 2 samples.

Results

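The inflammatory and homing chemokines are here the 6 genes Ccl3, Ccl4, Ccl6, Ccl9, Cxcl2 and Cxcl12, taken by name from the 7915 genes that the WT and Cko tables list between them. The WT table lists 5 of the 6 and the Cko table lists all 6, since Cxcl2 is not listed in WT. Each table holds the unique molecular identifiers (UMIs) of single bone marrow cells (BMCs) from the crushed forelimb and hindlimb bones of a C57BL6/J mouse at postnatal day 21, after collagenase and red cell lysis, run through the Chromium 3′ chemistry. The Cko mouse was bred to lack site-1 protease (S1P, encoded by Mbtps1) in the osterix lineage, through an Osx1-GFP::Cre transgene, active in precursors of bone-forming cells, and a floxed exon 2, and the WT mouse did not carry Osx-Cre, so that the transgene and the deletion cannot be told apart. The study proposes that Osx-Cre is also active in hematopoietic cells, and reports exon 2 deletion in sorted neutrophils of every Cko mouse it examined for this. There was 1 mouse and 1 library per genotype. No difference between WT and Cko could therefore be set against the spread between animals, and every interval given covers counting error alone.

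Chemokines are small secreted proteins that steer leukocytes through G protein-coupled receptors. Ccl3 and Ccl4, also known as macrophage inflammatory proteins 1-alpha and 1-beta, attract monocytes and lymphocytes, and Ccl3 acts through Ccr1. Ccl6 and Ccl9 are rodent chemokines of myeloid cells that act through Ccr1. Cxcl2 attracts neutrophils through Cxcr2. Cxcl12 keeps hematopoietic stem cells, B cell precursors and neutrophils in the marrow through Cxcr4, and reticular stromal cells around the sinusoids are known as its main source.

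In the GENCODE annotation of mouse genome build GRCm38, 4 of the 6 genes lie within 91.8 kb of chromosome 11. They are Ccl9 (minus strand, chr11:83572919-83578636), Ccl6 (minus strand, chr11:83587882-83593087), Ccl3 (minus strand, chr11:83647844-83649355) and Ccl4 (plus strand, chr11:83662584-83664683). Cxcl2 lies on chromosome 5 (plus strand, chr5:90903871-90905938) and Cxcl12 on chromosome 6 (plus strand, chr6:117168535-117181367). No stretch of 31 bases in the transcripts of Ccl3, Ccl4, Ccl6, Ccl9 or Cxcl12 recurs in the transcript of another chemokine ligand, whereas 161 of 2121 such stretches of Cxcl2 recur in Cxcl3. Ccl6 and Ccl9 are neighbours, 9.25 kb apart, and were the members most often found together in these cells, so the 120 bases before their annotated starts are shown (RefSeq, build GRCm38.p6, minus strand, chr11:83593088-83593207 for Ccl6 and chr11:83578637-83578756 for Ccl9). Capitals mark the match to GGAAGT, a core that ETS family factors such as PU.1 bind, which reads ACTTCC on the printed strand.
Ccl6: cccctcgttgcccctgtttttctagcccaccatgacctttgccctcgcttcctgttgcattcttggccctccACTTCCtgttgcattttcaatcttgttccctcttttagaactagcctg
Ccl9: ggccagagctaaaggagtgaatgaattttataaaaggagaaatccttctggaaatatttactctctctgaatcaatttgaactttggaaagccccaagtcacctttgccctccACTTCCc
Both matches lie at the end of a shared stretch of 13 bases, gccctccacttcc, and begin 48 bases before the start of Ccl6 and 7 bases before that of Ccl9. GGAAGT was found on either strand in 19.7% of the 32851 promoter windows of 250 bases, so a match in both is a description of these letters and not a site. Among the 5 members with a promoter window, Ccl3 also held 1 match, and Cxcl2 and Cxcl12 held none. The outline of a kappaB site, GGG and CC on either side of 5 free bases, matched 3 times in Cxcl2, with overlapping matches on both strands, 1 time each in Ccl9 and Cxcl12 and not in Ccl3 or Ccl6, and was found in 45.8% of all windows. TTNNGCAA, a C/EBP core, matched on neither strand in any of the 5, against 9.56% of all windows.

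The WT library held 6271 cells and the Cko library 3662 cells after a filter of 200 genes per cell, with medians of 6977 and 7440 UMIs per cell, and 28 barcodes occurred in both libraries. Cells were clustered jointly without any chemokine or receptor gene and were named from markers. Mbtps1 measured 31.9 CPM (UMIs of a gene per 1000000 UMIs of the same cells) in WT and 31.2 CPM in Cko, but 3′ tags do not report on exon 2, so this does not check the genotype. Xist was listed in Cko alone and Ddx3y in WT alone, so the 2 mice differed in sex, and genotype and sex cannot be told apart in any comparison that follows. Erythroid-like cells were 43.9% of WT and 13.8% of Cko cells, monocyte-like cells 5.04% and 14.4%, and late neutrophil-like cells 2.73% and 15.0%.

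Over all cells the members fell into 3 patterns. Ccl6 (1565 UMIs in WT and 4214 in Cko) and Ccl9 (970 and 2309 UMIs) were spread over many cells, Cxcl12 (1059 and 528 UMIs) sat in a few stromal-like cells, and Ccl3 (67 and 94 UMIs), Ccl4 (224 and 39 UMIs) and Cxcl2 (15 UMIs in Cko) were carried by a few cells each. A Ccl6 UMI was found in 558 WT cells (8.90%) and 906 Cko cells (24.7%), and a Ccl9 UMI in 363 (5.79%) and 695 (19.0%). For Cxcl12 5 WT cells and 3 Cko cells held at least 50% of all its UMIs, although 86 and 32 cells had a UMI.

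The Cko/WT ratio of CPM over all cells was 4.41 for Ccl6 (27.8 and 122 CPM, 95% interval 4.16 to 4.67), 3.90 for Ccl9 (17.2 and 67.1 CPM, 3.61 to 4.204) and 2.30 for Ccl3 (1.19 and 2.73 CPM, 1.66 to 3.19). It was 0.285 for Ccl4 (3.98 and 1.13 CPM, 0.197 to 0.402) and 0.816 for Cxcl12 (18.8 and 15.3 CPM, 0.734 to 0.907). Thus 3 of the 5 members tested were at least 2-fold higher in Cko with an interval that excludes 1, against 8.84% of the 5871 genes with at least 100 UMIs, and 1 was at least 2-fold lower, against 6.1%. The lower value, that of Ccl4, rested on 1 WT cell with 154 UMIs. Without the richest cell of each library 70 WT and 34 Cko UMIs of Ccl4 were left, a ratio of 0.795 (0.512 to 1.21), and the call was lost. With each cell thinned to 3000 UMIs the log2 ratio of Ccl3 went from 1.199 to 2.02 and that of Cxcl12 reversed from -0.29 to 0.28 (0.057 to 0.4997), so no direction can be read from Cxcl12 over all cells. The median log2 ratio was 1.199 over these members and -0.03 over all genes tested. Since the shares of cell classes differed between the libraries, the values within classes follow.

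**Figure D1:**
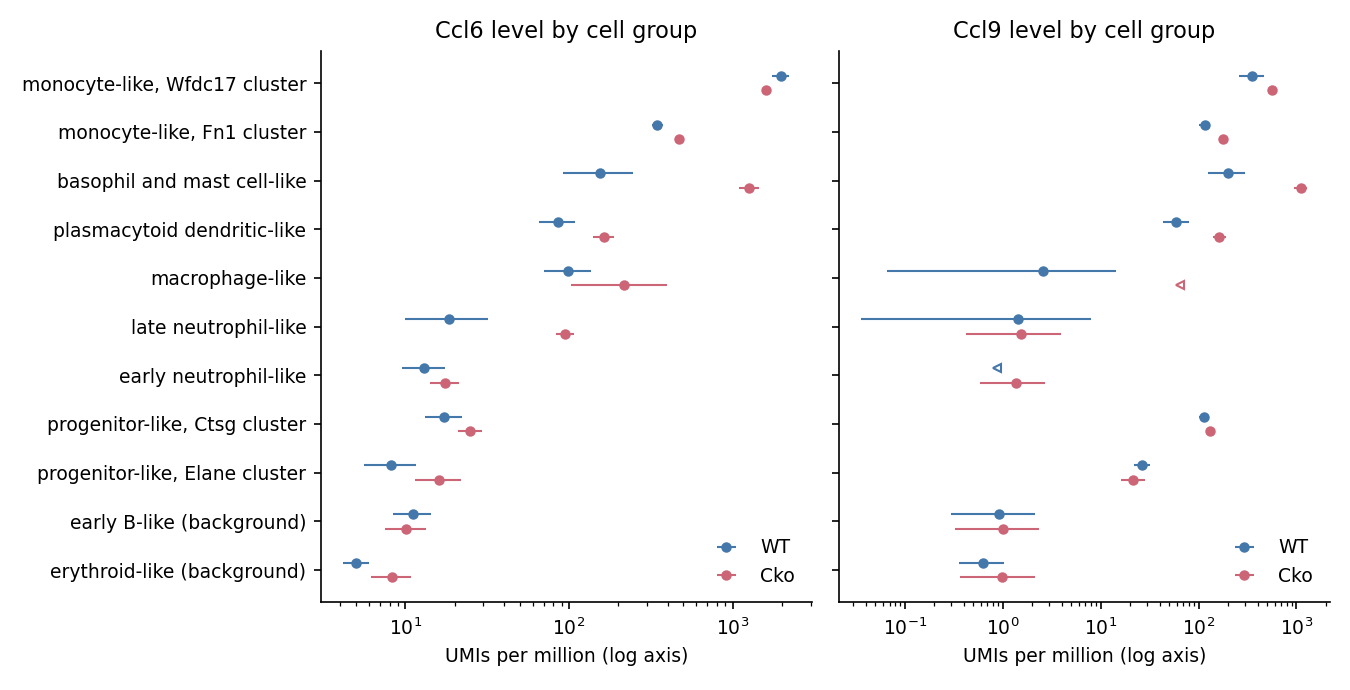
Level of Ccl6 (left) and Ccl9 (right) in each cell group, in CPM on a log axis, for WT (blue) and Cko (red), with the 95% Poisson interval of the summed UMIs as bars. Open triangles stand at the level of 3 UMIs where a group had none. Ccl6 was highest in the Wfdc17-led monocyte-like cluster (1967 CPM in WT and 1603 CPM in Cko), and Ccl9 reached background in neutrophil-like cells.

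Most Ccl6 UMIs were in monocyte-like cells, 59.4% of them in WT and 72.8% in Cko. The monocyte-like class held 2 clusters, one led by Fn1, S100a4 and Ms4a6c (282 WT and 276 Cko cells) and one led by Wfdc17, Sirpb1c and Apoe (34 WT and 252 Cko cells). In the Wfdc17-led cluster Ccl6 measured 1967 CPM in WT (1736 to 2219) and 1603 CPM in Cko (1532 to 1676), with a median of 7.5 and 7 UMIs per cell, and was found in 34 of 34 and 249 of 252 cells. In the Fn1-led cluster it measured 346 CPM (320 to 374) and 471 CPM (445 to 499), with a median of 1 and 3 UMIs per cell. With each cell thinned to 3000 UMIs, 46.1% of WT and 63.8% of Cko cells of the Fn1-led cluster kept a Ccl6 UMI, as did 97.1% and 94.8% of the Wfdc17-led cluster. Without thinning the shares of the Fn1-led cluster were 64.9% and 80.8%.

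The Cko/WT ratio of Ccl6 was 1.36 (1.24 to 1.4997) in the Fn1-led cluster and 0.815 (0.716 to 0.931) in the Wfdc17-led cluster, so the 2 intervals lay on opposite sides of 1. Pooled over both clusters the ratio was 1.86 (1.73 to 2.003), which is above either of them, since the Wfdc17-led cluster was 34 of 316 monocyte-like cells in WT and 252 of 528 in Cko. Neither cluster reached 2-fold for Ccl6 or Ccl9, where 1.12% of 3838 genes in the Fn1-led and 3.99% of 1530 genes in the Wfdc17-led cluster were called higher in Cko, and 1.22% and 2.68% lower. The background, read from cells that should lack the gene, was 11.1 and 10.1 CPM in early B-like cells and 5.00 and 8.25 CPM in erythroid-like cells. In thinned cells it was 2.06% and 2.94% of early B-like cells, with unthinned shares of 3.47% and 5.33% at median depths of 5516 and 7197 UMIs.

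Below the monocyte-like cells, Ccl6 measured 99.1 CPM in WT macrophage-like cells (70.2 to 136) and 215 CPM in Cko (103 to 396), where 9 cells were found. Plasmacytoid dendritic-like cells, led by Siglech, H2-Aa and Cd7, gave 85.0 CPM in WT (65.3 to 109) and 163 CPM in Cko (140 to 190), a ratio of 1.92 (1.43 to 2.61), and 1 Cko cell there held 33 UMIs. The extent of this class, 127 WT and 140 Cko cells, changed with the clustering. At resolution 2.0 the cluster led by H2-Aa and Siglech held 68 and 78 cells and stayed unnamed. When Cko was clustered on its own, 58 of its cells took the name. Whether the class also held other kinds of cells was not tested. The macrophage-like and plasmacytoid dendritic-like levels overlapped within each library, and so did those of the Ctsg-led progenitor-like and early neutrophil-like cells in WT (17.3 and 13.04 CPM). Early neutrophil-like cells (13.04 and 17.4 CPM) and the Elane-led progenitor-like cells (8.19 and 16.1 CPM) stood near the background. In early neutrophil-like cells Ccl6 was not called (1.33, 0.929 to 1.94), where 1.23% of 3984 genes were called higher and 0.577% lower. In WT, a cell of an unnamed cluster held 24 Ccl6 UMIs and an early B-like cell held 17, so single cells outside the myeloid classes reached the range of monocyte-like cells, whose highest value in WT was 19.

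**Figure D2:**
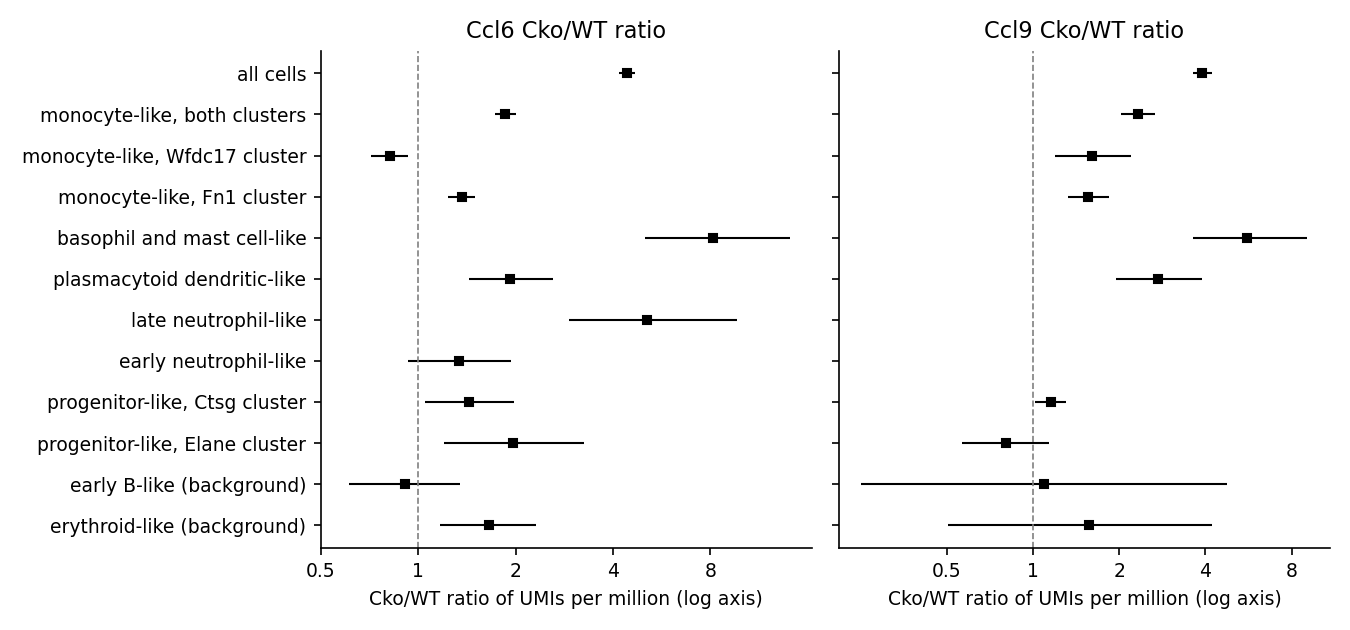
Cko/WT ratio of Ccl6 (left) and Ccl9 (right) in each cell group on a log axis, with the exact 95% interval from the UMI counts and a dashed line at 1. Groups with 3 or fewer UMIs in a library have no point. The ratio over all cells, 4.41 for Ccl6 and 3.90 for Ccl9, lay above the ratios of both monocyte-like clusters.

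Late neutrophil-like cells, led by Mmp8, Retnlg and Ly6g, had Ccl6 at 18.6 CPM in WT (13 UMIs in 10 of 171 cells) and 94.5 CPM in Cko (245 UMIs in 97 of 550 cells), a ratio of 5.08 (2.92 to 9.69). The WT interval, 9.89 to 31.8 CPM, overlapped the background of WT early B-like cells (8.44 to 14.2 CPM), though not that of erythroid-like cells (4.17 to 5.95 CPM). The size of the ratio thus rests on a WT value near background. Ccl6 was the single member with at least 100 UMIs in late neutrophil-like cells, reached through Cko. Of the 1793 genes tested, 2.45% were at least 2-fold higher in Cko with an interval that excludes 1, against 0.446% lower. The value moves with the cells that bear the name: when each library was clustered on its own, the log2 ratio fell from 2.35 to 1.28, with 114 WT and 217 Cko UMIs. The WT class was then 98 cells, of which 28.6% were called doublets, against none of the 171 in the joint clustering. Monocyte genes were low in the Cko cells richest in Ccl6. In the 15 Cko cells with at least 4 Ccl6 UMIs, 10 of 13 monocyte markers were at 0, Fn1, Csf1r and Ms4a6c among them, the markers summed to 1514 CPM against 1372 CPM in the cells without a Ccl6 UMI and 10972 CPM in Cko monocyte-like cells, and Retnlg, a gene of mature neutrophils, reached 48344 CPM against 3874 CPM in the cells without a Ccl6 UMI. Over all 97 Cko cells with a Ccl6 UMI the markers summed to 1697 CPM, and over the 10 such WT cells to 2133 CPM against 1386 CPM in the WT cells without one. None of the 15 Cko cells with at least 4 Ccl6 UMIs was called a doublet, and their zeros say little. Fn1, Csf1r and Ms4a6c stood at only 1.39, 2.32 and 1.86 CPM in the 453 Cko cells without a Ccl6 UMI.

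Placed along maturation by the log2 ratio of late genes (Retnlg, Mmp8, Mmp9 and Slpi) to early granule genes (Camp, Ngp, Ltf and others), the neutrophil-like cells showed Ccl6 mainly in the latest of 3 bins. It measured 6.21, 8.40 and 74.6 CPM from the earliest to the latest bin in WT and 12.2, 12.6 and 108 CPM in Cko. In the latest bin 12 of 101 WT cells and 105 of 506 Cko cells had a UMI, and the ratio was 1.45 (1.01 to 2.17), well under that of the late neutrophil-like class. The bin and the class did not hold the same WT cells. This bin held 32 WT UMIs, up to 8 in a cell, against 13 in the late neutrophil-like class, at most 2 in a cell. Part of the WT value thus came from early neutrophil-like cells. In 6 bins, a choice made after the data were seen, the latest bin gave 60.3 CPM in WT (9 UMIs in 40 cells) and 201 CPM in Cko (244 UMIs in 264 cells), a ratio of 3.33 (1.73 to 7.37). The bin before it gave 82.3 CPM in WT (23 UMIs in 7 cells, up to 8 in a cell) and 22.3 CPM in Cko, a ratio of 0.271 (0.151 to 0.490). Ccl9 did not follow, with at most 5 UMIs per library in each of the 3 bins.

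**Figure D3:**
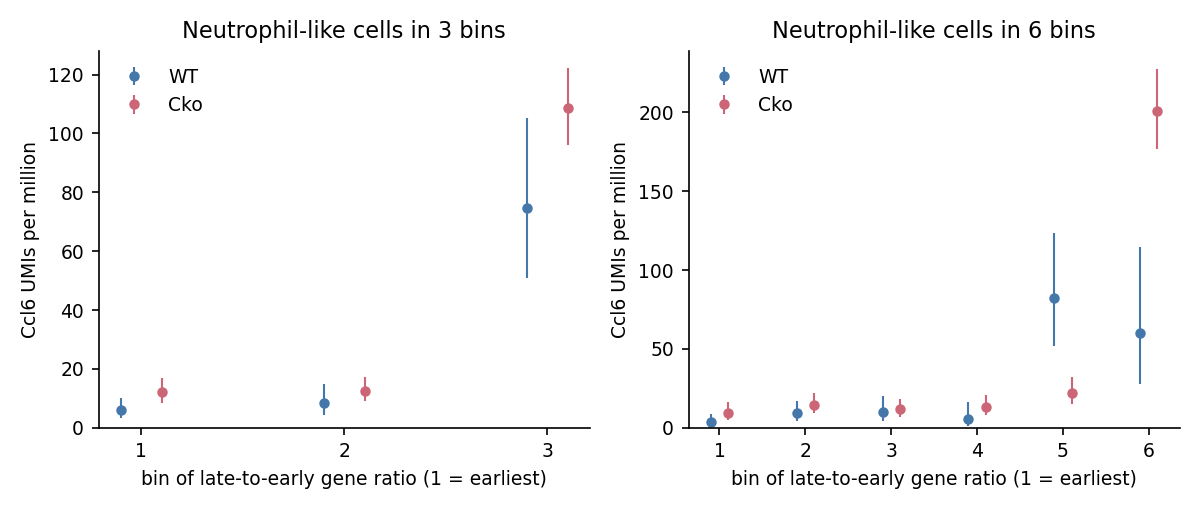
Ccl6 in neutrophil-like cells of WT (blue) and Cko (red) in 3 (left) and 6 (right) bins of the ratio of late to early maturation genes, in CPM with 95% Poisson intervals. The latest of 3 bins held 74.6 CPM in WT and 108 CPM in Cko, against 6.21 to 12.6 CPM in the other bins.

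Ccl9 shared the monocyte-like cells with Ccl6 but was also found in progenitor-like cells. In granulocyte-monocyte progenitor-like cells of the cluster led by Ctsg, Mpo and Cd34 it measured 113 CPM in WT (102 to 125) and 130 CPM in Cko (121 to 140), and in the cluster led by Elane, the neutrophil elastase gene, it measured 26.6 CPM (21.7 to 32.2) and 21.5 CPM (16.0 to 28.1). The Ctsg-led level did not differ from that of the Fn1-led monocyte-like cluster in WT, 115 CPM (101 to 132), beyond counting error, whereas in Cko it lay below that of the Fn1-led cluster, 180 CPM (163 to 197). Early neutrophil-like cells had 0 UMIs in WT and 8 UMIs in Cko (1.38 CPM), and late neutrophil-like cells 1 and 4 UMIs, at the level of early B-like cells (0.92 and 1.01 CPM). Thus Ccl9 was present in monocyte-like cells and in both progenitor-like clusters, at a lower level in the Elane-led one, and at background in the neutrophil-like cells.

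In monocyte-like cells Ccl9 was higher in Cko in both clusters. The Fn1-led cluster had 115 CPM in WT and 180 CPM in Cko (163 to 197), a ratio of 1.56 (1.32 to 1.84), and the Wfdc17-led cluster 351 CPM (258 to 467) and 563 CPM (521 to 607), a ratio of 1.60 (1.19 to 2.20). In thinned cells 23.8% and 33.0% of the Fn1-led cluster had a UMI, as had 17 of 34 WT cells and 71.8% of Cko cells of the Wfdc17-led cluster. Pooled over both clusters the ratio was 2.33 (2.04 to 2.67), past 2-fold, where 1.92% of 4229 genes were called higher and 1.66% lower, but in each cluster it stayed under 2-fold. In progenitor-like cells the ratio was 1.15 (1.02 to 1.31) in the Ctsg-led and 0.806 (0.567 to 1.14) in the Elane-led cluster. Neither was called, where 0.716% and 0.991% of the genes tested in these clusters were called higher and 0.511% and 1.28% lower, and over both clusters, where 0.811% were called higher and 0.831% lower, 0 of the 2 members tested were called. Plasmacytoid dendritic-like cells had 59.4 CPM (43.1 to 79.7) and 162 CPM (139 to 188), a ratio of 2.73 (1.95 to 3.90), where 1.27% of 2134 genes were called higher and 1.08% lower. This ratio belongs to the class as first clustered, whose extent changed with the clustering.

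Ccl6 and Ccl9 were found in the same cells more often than their separate shares would give over all cells, with 135 WT cells against 32.3 and 440 Cko cells against 172 for independent detection. Within the monocyte-like clusters the counts lay closer together. In thinned cells of the Fn1-led cluster both were found in 40 WT cells against 30.9 and in 68 Cko cells against 58.0, and in the Wfdc17-led cluster in 17 against 16.5 and 172 against 172. In thinned plasmacytoid dendritic-like cells both were found in 9 WT cells against 2.39 and in 15 Cko cells against 7.31.

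The 3 highest single-cell values of Ccl9 in WT, 40, 23 and 22 UMIs, came from cells with osteoclast enzymes. Taking cells with at least 10 UMIs of Ctsk, the cathepsin that resorbing osteoclasts secrete, a cutoff set with the values in view, gave 6 WT and 3 Cko cells, all in an unnamed cluster led by Acp5, Mmp9 and Retnlg in which 36.1% of barcodes were called doublets, and the highest value under the limit was 4 Ctsk UMIs. Each of them also had Atp6v0d2, a proton pump subunit of osteoclasts, and Acp5 of at least 20 UMIs. Ccl9 was present in 5 of the 6 WT cells, with up to 40 UMIs, and in 3 of the 3 Cko cells, with 14 to 23 UMIs. This amounted to 1798 CPM in WT (1468 to 2181) and 1057 CPM in Cko (790 to 1386), above the Wfdc17-led monocyte-like cluster, whereas Ccl6 gave 2 and 1 UMIs in these cells. None of the 9 cells was called a doublet.

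Basophil and mast cell-like cells, led by the protease genes Prss34, Mcpt8 and Cpa3, were few (17 WT and 23 Cko cells) and held 3 of the members at high levels. Ccl3 measured 60.3 CPM in WT (7 UMIs in 3 cells, 24.3 to 124) and 397 CPM in Cko (60 UMIs in 11 cells, 303 to 511), a ratio of 6.58 (3.01 to 17.1). Ccl6 measured 155 CPM (18 UMIs in 5 cells) and 1264 CPM (191 UMIs in 9 cells), a ratio of 8.15 (5.02 to 14.0), and Ccl9 198 CPM (23 UMIs in 7 cells) and 1112 CPM (168 UMIs in 18 cells), a ratio of 5.61 (3.62 to 9.09). Of the 363 genes with at least 100 UMIs in these cells 6 (1.65%) were called at least 2-fold higher in Cko, and Ccl6 and Ccl9 had the first and the second place among them, followed by Serpinb1a, Rsrp1, Cd52 and Rpl23a-ps3. In the other direction 1.38% were called, and the median log2 ratio over all 363 genes was -0.02. Ccl6 and Ccl9 reached 100 UMIs in these cells through their Cko counts, which favours a high ratio, so their places are a description only. Summed over 6 NF-kappaB response genes the level in these cells was 284 CPM in WT and 563 CPM in Cko (ratio 1.98, 1.31 to 3.05), and its part in the values of Ccl3, Ccl6 and Ccl9 was not tested.

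Ccl3, Ccl6 and Ccl9 each peaked in a different basophil and mast cell-like cell of Cko. The Cko cells with the most Ccl3 had 17, 15 and 13 UMIs, and of these the one with 15 had neither Ccl6 nor Ccl9, whereas the other two held 19 and 21 Ccl9 UMIs, the latter beside 20 Ccl6 UMIs. The Cko cell with the most Ccl6 held 94 of its 191 UMIs, beside 23 Ccl9 and 1 Ccl3. Some of these Cko cells were poor in the naming markers. The cell with 94 Ccl6 UMIs had 58 Prss34 and 2 Cpa3 UMIs, and the cell with 13 Ccl3 UMIs had 0 and 2. The Cko cell with 29 Ccl9 UMIs had 296 and 7, and the WT cell with 4 Ccl3 UMIs had 251 and 11. Whether the chemokine-rich cells were of the same kind or stage in both libraries was not tested, so the ratios are those of a mixed class. Ccl9 was the most evenly spread, from 0 to 29 UMIs with a median of 4 in Cko and from 0 to 9 with a median of 0 in WT, and 73.9% of thinned Cko cells had a UMI against 29.4% in WT (exact binomial intervals 51.6 to 89.8% and 10.3 to 56.0%). Without the richest cell of each library the ratios were 10.8 (3.47 to 54.7) for Ccl3, 6.75 (3.61 to 14.0) for Ccl6 and 7.53 (4.34 to 14.1) for Ccl9. The values of WT and Cko cells overlapped for all 3 genes.

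**Figure D4:**
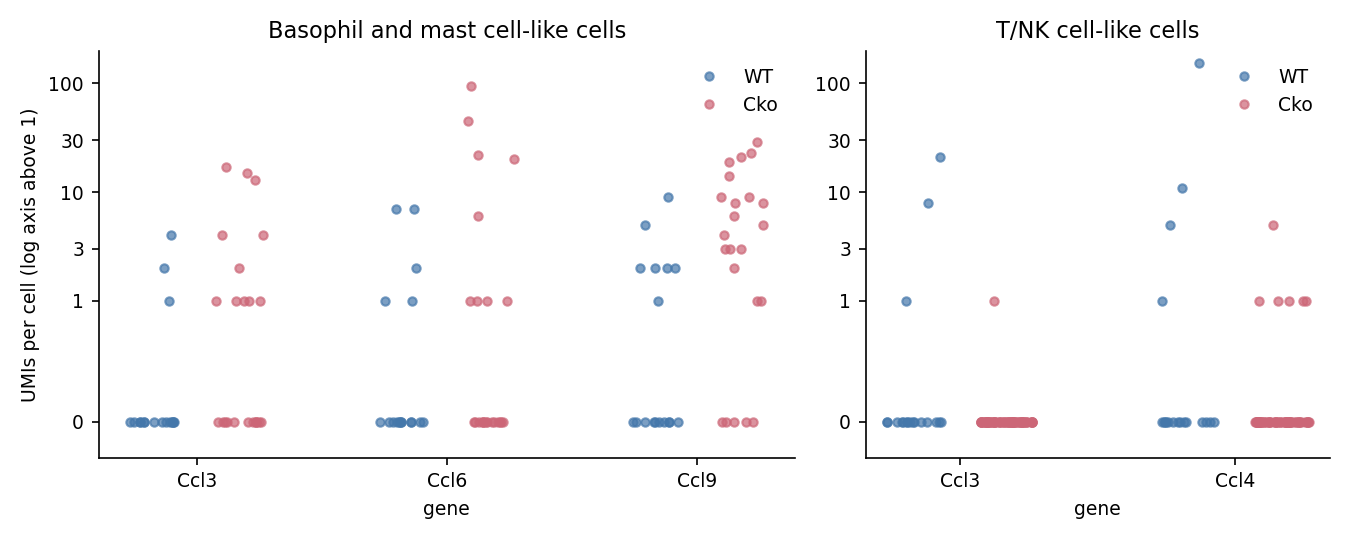
UMIs of Ccl3, Ccl6 and Ccl9 in each basophil and mast cell-like cell (left) and of Ccl3 and Ccl4 in each T/NK cell-like cell (right), WT in blue and Cko in red, on an axis that is linear to 1 and logarithmic above. The Cko cells reached 17, 94 and 29 UMIs against 4, 7 and 9 in WT on the left, and a single WT cell with 154 Ccl4 UMIs stands apart on the right.

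Ccl4 rested on single cells. Of its 224 WT UMIs 154 came from 1 T/NK cell-like cell, which also held 21 Ccl3, 160 Xcl1, 29 Ccl5 and 33 Gzma UMIs and no Cd3d, genes that activated natural killer cells and cytotoxic T cells use. A further 25 came from 1 progenitor-like cell of the Ctsg-led cluster. In the 18 WT T/NK cell-like cells Ccl4 gave 1480 CPM (171 UMIs in 4 cells) and Ccl3 260 CPM (30 UMIs in 3 cells, each of which also had Ccl4), and in the 66 Cko cells they gave 29.8 CPM (10 UMIs in 6 cells) and 2.98 CPM (1 UMI). The ratio of Ccl4 was 0.020 (0.009 to 0.038), where 8.38% of 537 genes were called at least 2-fold lower and 6.15% higher. Leaving out the richest cell of each library gave 17 WT and 5 Cko UMIs of Ccl4 and a ratio of 0.096 (0.028 to 0.272). Cells without a Cd3d, Cd3e or Cd3g UMI were 6 of 18 in WT and 12 of 66 in Cko.

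Outside the basophil and mast cell-like and T/NK cell-like classes Ccl3 and Ccl4 were low, at most 13.04 CPM in any named class or cluster (Ccl3 in WT macrophage-like cells, 5 UMIs). In monocyte-like cells Ccl3 measured 4.37 CPM in WT (9 UMIs in 6 cells) and 5.47 CPM in Cko (20 UMIs in 9 cells), a ratio of 1.25 whose interval, 0.544 to 3.12, spans 1, and Ccl4 gave 4 and 11 UMIs. In plasmacytoid dendritic-like cells Ccl4 measured 12.1 CPM (9 UMIs in 7 cells) and 8.50 CPM (9 UMIs in 6 cells), a ratio of 0.700 (0.246 to 1.99). In 2753 WT erythroid-like cells there were 0 Ccl3 UMIs and 5 Ccl4 UMIs, the latter 0.20 CPM, as the background. Over all cells 7 WT cells and 2 Cko cells held both genes, against 0.119 and 0.213 for independent detection.

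Cxcl2 was detected in Cko in 2 cells. A late neutrophil-like cell held 14 of the 15 UMIs and an early B-like cell held 1. The 550 Cko late neutrophil-like cells thus averaged 5.40 CPM (2.95 to 9.06), carried by 1 cell, and the 528 Cko monocyte-like cells had 0 UMIs, which allows up to 0.82 CPM at 3 UMIs. No ratio was formed, since a gene that is not listed in WT cannot be taken as 0.

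Most Cxcl12 UMIs were in stromal-like cells. The stromal-like class, led by Col1a2, Col1a1, Sparc and Fabp4, was 31 of 6271 WT cells and 18 of 3662 Cko cells (0.494% and 0.492%) and held 88.1% and 91.3% of all Cxcl12 UMIs. It measured 4377 CPM in WT (933 UMIs in 22 cells, 4100 to 4667) and 3842 CPM in Cko (482 UMIs in 15 cells, 3506 to 4200), a ratio of 0.878 (0.785 to 0.981), while 5.66% of the 477 genes tested in these cells were called in each direction. With each cell thinned to 3000 UMIs the log2 ratio went from -0.19 to 0.13, so no direction can be read from the class.

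Within the class Cxcl12 followed the adipokine gene Adipoq, which together with Lepr marks marrow reticular cells. The 19 WT cells with an Adipoq UMI held 911 of the 933 UMIs, with 5 to 154 UMIs per cell and a median of 37, and the 9 Cko cells with one held 447 of the 482 UMIs, with 3 to 99 per cell and a median of 54. In these cells the level was 7263 CPM in WT (6799 to 7751) and 8893 CPM in Cko (8087 to 9756), a ratio of 1.22 (1.09 to 1.37). However, 1 WT cell with 9 Cxcl12 UMIs held 21728 of the 125422 UMIs of the 19 WT cells, which lowers the WT level and raises the ratio. The ratio without this cell was not computed, so no direction is read from the value of 1.22. Lepr, the leptin receptor, was found in 11 of the 19 and 4 of the 9 cells, and Kitl, the stem cell factor gene, in 17 of 19 and 7 of 9.

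Cells rich in Col1a1, the bone collagen gene, did not hold Cxcl12. The 6 WT cells with at least 100 Col1a1 UMIs had 287 to 2017 of them and 0 Cxcl12 UMIs, which allows up to 65.8 CPM at 3 UMIs, and each also had Bglap, the osteocalcin gene. Cko had no cell at this limit, and Bglap is not listed there. So the WT class held 6 cells of a kind that the Cko class did not. The limits on Adipoq and Col1a1 were chosen after the values were seen.

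Most Cxcl12-rich barcodes also carried endothelial genes, and when Cko was clustered on its own 17 of its cells took the name endothelial-like and none stromal-like. Of the 19 WT cells with Adipoq 15 had UMIs of endothelial markers such as Cdh5, Egfl7 and Emcn, as had 9 of 9 in Cko, and the WT cell with the most Cxcl12 (154 UMIs) had 17 Adipoq, 12 Cdh5 and 183 Fabp4 UMIs. The 4 WT cells with Adipoq but no endothelial UMI measured 9099 CPM (7831 to 10512), against 6911 CPM (6417 to 7432) in the 15. Among the 15, however, 1 cell with 9 Cxcl12 UMIs held 21728 of their 105199 UMIs and lowers their level, so no difference is read from these levels. Cells with endothelial UMIs but no Adipoq measured 731 CPM in WT (5 cells) and 559 CPM in Cko (8 cells). None of these was called a doublet, and whether 1 barcode held 1 cell or a reticular and an endothelial cell was not tested.

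**Figure D5:**
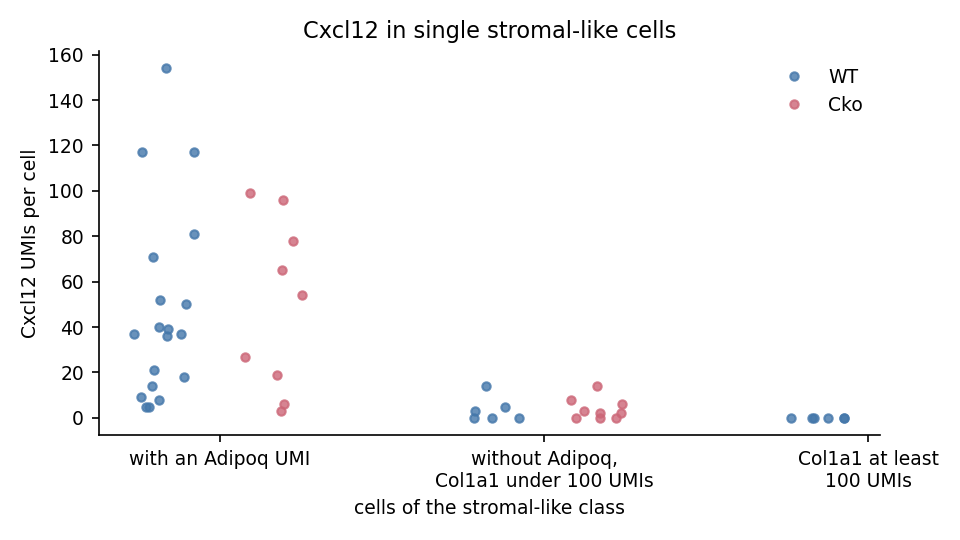
Cxcl12 UMIs in each stromal-like cell of WT (blue) and Cko (red), split by Adipoq and Col1a1. Cells with an Adipoq UMI held 5 to 154 UMIs in WT and 3 to 99 in Cko, and the 6 WT cells with at least 100 Col1a1 UMIs held 0.

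Elsewhere Cxcl12 gave 126 UMIs in 64 WT cells and 46 UMIs in 17 Cko cells. Megakaryocyte-like cells measured 97.2 CPM in WT (58 UMIs in 8 of 34 cells) and 22.1 CPM in Cko (6 UMIs in 2 of 16 cells), a ratio of 0.228 (0.080 to 0.526). Adipoq UMIs were found in 4 of these 8 WT cells, and whether the Cxcl12 came from the megakaryocytes was not tested. In Cko 1 macrophage-like cell held 22 UMIs beside 2 Adipoq and 12 Fabp4 UMIs. The background in erythroid-like cells was 1.10 CPM in WT and 0.49 CPM in Cko.

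The receptors of the members were read in the same classes. Of 24 chemokine receptor genes, 8 were listed in WT and 11 in Cko, and Ackr3 was in neither list. Ccr1, the receptor of Ccl3, Ccl6 and Ccl9, measured 113 CPM in WT and 115 CPM in Cko in late neutrophil-like cells, 93.9 and 88.7 CPM in early neutrophil-like cells and 94.1 and 79.1 CPM in the Fn1-led monocyte-like cluster, and its ratios in these groups (1.02, 0.945 and 0.841) had intervals that span 1. Cxcr2, the receptor of Cxcl2, measured 91.5 and 123 CPM in late neutrophil-like cells, a ratio of 1.34 (1.03 to 1.79). Cxcr4, the receptor of Cxcl12, measured 75.9 CPM in Cko against 46.8 CPM in WT in the Fn1-led cluster (1.62, 1.25 to 2.11), and 43.5 against 26.0 CPM in early B-like cells (1.67, 1.35 to 2.08). Of the 7 receptors tested over all cells 5 were at least 2-fold higher in Cko and 1 lower, against 8.84% and 6.1% of all genes tested, but of the 3 tested in the Fn1-led cluster, in late neutrophil-like and in early neutrophil-like cells 0 were called. In stromal-like cells 1 of 1 was called higher, against 5.66% of genes. This was Ackr1, an atypical receptor that binds many inflammatory chemokines without signalling through G proteins, with 42 UMIs in WT and 146 in Cko (ratio 5.91, 4.16 to 8.54), and it was also the 1 receptor called lower over all cells (0.492, 0.436 to 0.555). The mix of cells in the stromal-like class differed between the libraries, and its part in the Ackr1 ratio was not tested.

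Other chemokine ligands moved in both directions. Of 31 such genes, 13 were listed in WT, 9 in Cko and 7 in both, and of the 5 with at least 100 UMIs over all cells 1 was at least 2-fold higher in Cko and 2 were lower, against 8.84% and 6.1% of all genes tested. Ccl5 was higher (6.69 and 48.7 CPM, ratio 7.27, 6.50 to 8.15), and Xcl1 (4.01 and 0.46 CPM, ratio 0.116, 0.065 to 0.192) and Cxcl14 (3.13 and 0.93 CPM, ratio 0.298, 0.197 to 0.436) were lower. The WT cell with 154 Ccl4 UMIs held 160 of the 226 WT Xcl1 UMIs, and without the richest cell of each library 66 WT and 11 Cko UMIs were left, too few for a call, with a ratio of 0.273 (0.130 to 0.520). In T/NK cell-like cells Ccl5 had a ratio of 2.005 (1.76 to 2.29) and Xcl1 of 0.025 (0.014 to 0.042), opposite to each other, as Ccl4 was to Ccl5. Without the richest cell of each library the ratio of Xcl1 there was 0.061 (0.029 to 0.118), from 58 WT and 11 Cko UMIs. In stromal-like cells Cxcl14 had a ratio of 0.259 (0.163 to 0.396). Of the stem cell niche factors 2 had at least 100 UMIs there and both were called higher in Cko, against 5.66% of genes. Vcam1, an adhesion gene, had 2.16 (1.73 to 2.71). The 6 Col1a1-rich WT cells, a kind that the Cko class lacked, held 45575 of the 213175 UMIs of the WT class and 0 Vcam1 UMIs. They thus lower the WT level of Vcam1, and the ratio without them was not computed. Spp1, the osteopontin gene, had 3.395 (3.07 to 3.75), but 1 Cko cell held 1182 of its 1187 UMIs, and without the richest cell of each library the ratio was 0.038 (0.012 to 0.089). The niche factor Kitl, with fewer UMIs, had 1.03 (0.530 to 1.95).

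Genes of the NF-kappaB response and immediate early genes, which often move with Ccl3, Ccl4 and Cxcl2, were read beside them. In the Fn1-led monocyte-like cluster Nfkbia, the inhibitor of NF-kappaB and one of its targets, was 68.6 CPM in WT and 232 CPM in Cko (ratio 3.38, 2.79 to 4.11), the 1 of 4 NF-kappaB genes called there, and Fos, an immediate early gene, was 41.1 and 88.8 CPM (2.16, 1.67 to 2.83), the 1 of 10 called, where 1.12% of 3838 genes were called higher. In the Wfdc17-led cluster 0 of 4 NF-kappaB genes were called, and Klf2 (0.375, 0.305 to 0.463) and Ier5 (0.398, 0.246 to 0.672) were the 2 of 10 immediate early genes called, both lower in Cko. Of the 1530 genes tested in that cluster 3.99% were called higher and 2.68% lower. Summed over 16 immediate early genes the level was 735 and 755 CPM in the Fn1-led cluster (ratio 1.03, 0.957 to 1.10), 2857 and 1760 CPM in the Wfdc17-led cluster (0.616, 0.552 to 0.689) and 371 and 589 CPM in basophil and mast cell-like cells (1.59, 1.09 to 2.34). In late neutrophil-like cells, where Ccl6 was called, it was 767 and 948 CPM (1.23, 1.12 to 1.36), and 2 of 8 immediate early genes were called higher, against 2.45% of genes. They were Dusp1, a phosphatase gene, with 4 and 104 UMIs (7.01, 2.66 to 26.2), and Junb, an AP-1 subunit gene, with 16 and 134 UMIs (2.26, 1.34 to 4.07). Pooled over both monocyte-like clusters, where 1.92% of genes were called higher, Nfkbia (3.53, 2.99 to 4.19) was the 1 of 4 and Dusp1 (2.43, 1.67 to 3.62) the 1 of 11 called, and in B cell-like cells Klf2 had a ratio of 2.31 (1.87 to 2.87). Tissue digestion can raise such genes, and their part in the values of the members was not tested.

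The genes whose pattern was most like that of each member were ranked by Pearson's r of log2(CPM + 1) over 21 points, a point being a named class in a library with at least 20 cells. For Ccl6 they were Stx3 (0.83), Pla2g7 (0.83) and Ggh (0.80), and for Ccl9 Bid (0.88), Ms4a6c (0.87) and Rnh1 (0.87). Ccl3 was closest to the basophil genes Cd200r3 (0.86), Ms4a2 (0.85) and Prss34 (0.79), and Ccl4 to Cd7 (0.85), Klrk1 (0.84) and Gpr183 (0.83). Cxcl12 was closest to Igfbp5 (0.99), Serping1 (0.98) and Ibsp (0.97), where 1 stromal point sets the value. Basophil and mast cell-like and T/NK cell-like cells likewise entered as a Cko point alone, so the values of Ccl3 rest on 1 basophil point, and those of Ccl4 leave out the WT T/NK cell-like cells, which held 171 of its 224 WT UMIs. Ccl6 and Ccl9 had r = 0.72, and Cxcl12 had r = -0.36 with Ccl9 and -0.09 with Ccl6. Points of the 2 libraries for a class share their markers, so these values describe the pattern and carry no test.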

How the data were processed

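BMCs of 1 WT and 1 Cko mouse were profiled by Sc-RNA-Seq. Per the labels, the authors processed the reads with Cell Ranger on build GRCm38 (version not given in the sources used here), and the deposited tables hold raw UMI counts of genes by barcodes, 6287 barcodes in WT and 3670 in Cko, which are the cell numbers the study states. Each gene in a table had a cell with 4 or more UMIs, so a gene that is not listed was not taken as 0. The table's total row and column were left out, and duplicate rows of 1 gene were summed. Cells with at least 200 genes were kept. Over all barcodes the libraries held 56382459 and 34447224 UMIs. Scrublet (scanpy 1.11.5, expected doublets 5%) called 122 WT and 38 Cko barcodes, which were kept, except in an alternative.

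Cells of both libraries were clustered with Seurat 5.3.0 (R 4.3.3; 6001 genes listed in both less chemokine, receptor and Stfa genes, 2000 variable genes, 20 components, resolution 1.2, with mitochondrial and ribosomal shares regressed). A cluster was named from at least 3 markers. It gave 28 clusters, of which 3 stayed unnamed. Summed UMIs were given as CPM with exact Poisson intervals, shares with exact binomial (Clopper-Pearson) intervals and Cko/WT ratios with exact conditional intervals, at 95%. A call needed a 2-fold ratio and an interval that excludes 1 among genes with at least 100 UMIs. The UMIs of both libraries counted toward this limit, so a gene could pass through the library where it was high. With 1 library per genotype there was no test. The ratio intervals and calls alone were run on simulated Poisson counts of whole-library gene sums, without spread between cells or animals. UMI tags are counted at the 3′ end, so no length correction was applied, and levels were compared within a gene.

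The members and lists were chosen with earlier results of these data known. Named were the members, their receptors, 3 genes of like pattern per member and list genes past the call limit in a leading class; others were chosen after their values were seen. Csf3r, a late maturation gene not listed in Cko, was left out of the maturation ratio. Classes with under 20 cells in a library (basophil and mast cell-like, T/NK cell-like, macrophage-like, megakaryocyte-like and stromal-like) are given as a description. Alternatives were doublet removal, 500 genes per cell, another denominator, thinning, and other clusterings.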

Additional observations from a re-analysis of the deposited data

Results flagged for a closer look

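Ccl6 was flagged because its Cko/WT ratio pointed in opposite directions in the 2 monocyte-like clusters, 1.36 in the cluster led by Fn1 and 0.815 in the cluster led by Wfdc17, each with a counting interval that excludes 1. With 1 library per genotype the difference between the clusters was not tested.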

How the results depend on the processing

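Values are log2 Cko/WT ratios. No paired analysis was possible because each genotype had 1 library, and no result came from a test. Of 107 alternative values for 15 ratios, 88 stayed within the counting interval of the reported ratio, 16 moved outside it with the same direction, and 3 reversed. With cells thinned to 3000 UMIs, Ccl3 over all cells went from 1.199 to 2.02, Ccl6 from 2.14 to 2.26, Ccl9 from 1.96 to 2.18 and Cxcl12 from -0.29 to 0.28, Cxcl12 in stromal-like cells from -0.19 to 0.13, and Ccl9 in basophil and mast cell-like cells from 2.49 to 3.28. Without hemoglobin and unshared genes in the denominator, the ratios over all cells were 1.97 for Ccl6, 1.79 for Ccl9 and -0.47 for Cxcl12. The leading class with at least 20 cells per library was the monocyte-like class for Ccl3 (0.32), Ccl6 (0.89) and Ccl9 (1.22) and the plasmacytoid dendritic-like class for Ccl4 (-0.52). Without that minimum, added after the data were seen, it was the basophil and mast cell-like class for Ccl3 (2.72), Ccl6 (3.03) and Ccl9 (2.49) and the T/NK cell-like class for Ccl4 (-5.63). Taken alone, also added afterwards, the Fn1-led cluster gave 0.45 for Ccl6 and 0.64 for Ccl9, and the Wfdc17-led cluster -0.30 and 0.68, and Ccl3 in the Fn1-led cluster gave -0.36, with an interval that spans 0. Without the richest cell of each library, also added afterwards, Ccl4 over all cells went from -1.81 to -0.33, with an interval that spans 0. With each library clustered on its own, Ccl6 in late neutrophil-like cells went from 2.35 to 1.28. No ratio was formed for Cxcl2, not listed in WT, or for Cxcl12 in B cell-like cells, its leading class under the minimum, where a library had 0 UMIs. Ccl4 and Ccl9 in plasmacytoid dendritic-like cells could not be given at resolution 0.6 or 2.0, with doublets removed or with separate clustering, nor Cxcl12 in stromal-like cells at resolution 0.6 or with separate clustering, since the class was then not named in both libraries. Left-out replicates could not be run with 1 library per genotype. Counting error limits Ccl3, Ccl4 and Cxcl2 most.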
